A study of Mus musculus with 2 samples.

Results

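The Hippo pathway and the transcriptional partners of Yap were examined in CH cells, the small Lin- CD45- Vybrant+ cells that circulate in the blood of healthy mice and that the submitters' labels call PlCH cells. The members were fixed by name as 10 genes, Yap1, Wwtr1, Tead1, Tead2, Tead3, Lats1, Lats2, Stk3, Stk4 and Nf2. They and the further lists below were chosen with earlier results of these data known. Every probe set whose annotation names only 1 member and no other gene was taken, whatever its signal. Of the 10 genes, 9 had such probe sets, 24 in all, out of 34945 probe sets that name 1 of 18193 genes. Stk3 had none and was not analysed here, and 1 further probe set names Lats2 together with Xpo4 and was left out. RNA came from 2 pools of healthy C57bl/6 mice, given in the labels as 15 male and female mice of 7 months for each pool, and each pool was hybridized to 1 Affymetrix mouse array. The study's general methods describe smaller pools of younger mice, so the age of the animals behind these arrays is not settled. Both arrays belong to the same group and no other population was analysed here, so levels were set against a limit and not against other cells. Pooling also means that the spread between arrays is that between pools and not between mice.

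The Hippo pathway is a chain of kinases that limits the activity of Yap, encoded by Yap1, and of its relative Taz, encoded by Wwtr1. The kinases Stk3 and Stk4 (Mst2 and Mst1) activate Lats1 and Lats2, which phosphorylate Yap and Taz so that these stay in the cytoplasm or are degraded. Where the chain is inactive, as in spread cells under tension, Yap and Taz enter the nucleus and bind the DNA-binding factors Tead1 to Tead4. Most of this control acts on protein phosphorylation and location, which RNA levels do not show.

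The effectors Yap1 and Wwtr1, the Tead genes and typical target genes all gave signals above the limit used here in CH cells. Core letters of the site that Tead factors bind stand just upstream of several of them, though not of all. The letters CATTCC, or GGAATG on the other strand, form the core of the site that Tead factors bind. They are shown in capitals in the bases before the transcription start of both effectors and of 2 target genes that were far above the limit. The sequences are those of RefSeq on GRCm38.p6, run 5' to 3' on the strand of the gene, and stop where the annotated gene begins. Yap1 is shown from the minus strand of chr9:8004639-8004846, Wwtr1 from the minus strand of chr3:57575911-57576160, Ankrd1 from the minus strand of chr19:36119845-36120094 and Ccn1 from the minus strand of chr3:145649986-145650235.
Yap1: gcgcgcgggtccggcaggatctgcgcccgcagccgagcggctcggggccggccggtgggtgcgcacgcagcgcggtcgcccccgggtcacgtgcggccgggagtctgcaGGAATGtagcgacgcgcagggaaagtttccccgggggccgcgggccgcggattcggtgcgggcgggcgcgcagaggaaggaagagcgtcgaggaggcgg
Wwtr1: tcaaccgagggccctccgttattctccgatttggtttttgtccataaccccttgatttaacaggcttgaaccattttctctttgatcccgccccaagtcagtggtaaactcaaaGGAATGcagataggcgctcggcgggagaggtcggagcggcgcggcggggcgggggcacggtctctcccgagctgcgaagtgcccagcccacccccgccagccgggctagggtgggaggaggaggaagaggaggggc
Ankrd1: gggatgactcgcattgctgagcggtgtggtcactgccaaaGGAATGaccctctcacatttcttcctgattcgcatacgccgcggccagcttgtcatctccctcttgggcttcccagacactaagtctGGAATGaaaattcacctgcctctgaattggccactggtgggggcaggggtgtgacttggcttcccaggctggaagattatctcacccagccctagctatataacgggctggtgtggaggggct
Ccn1: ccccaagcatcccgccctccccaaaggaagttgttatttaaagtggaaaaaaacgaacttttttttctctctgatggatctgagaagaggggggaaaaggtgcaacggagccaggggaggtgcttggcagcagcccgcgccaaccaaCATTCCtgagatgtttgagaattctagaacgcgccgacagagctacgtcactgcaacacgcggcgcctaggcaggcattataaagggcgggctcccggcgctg
Ankrd1 holds the letters at 123 and 210 bases before its start, Ccn1 at 103, Wwtr1 at 136 and Yap1 at 141 (for Yap1 counted from a start that lies 42 bases inside the annotated gene). In windows of 250 bases before to 50 bases after a start, 4 of 8 members with such a window held the letters on either strand, namely Yap1, Wwtr1, Tead3 and Lats2. The share over all genes with a window was 16.6%. Counted over windows, since some genes have several starts, it was 6 of 13 for the members and 14.7% for all. Of 19 target genes with a window, 8 held the letters. Gadd45a, a target at 11.81, did not hold them, while Vgll1, below the limit at 4.19, did. A link between the letters and the signal was not tested. The letters occur in many promoters, so a match describes the sequence and does not show a bound site, and the arrays hold no measurement of binding. Windows for Tead1 and Ccn2 were not used here.

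Signals are log2 values per probe set as deposited by the authors. A limit of 5 (log2) was taken from the study's methods, where genes below it throughout the dataset were removed before clustering. All 9 members had at least 1 probe set above 5 on both arrays, against 71.2% of all genes, and 7 of 9 had a probe set above 8 on both arrays, against 37.0% of all genes. Of their 24 probe sets, 22 were above 5 on both arrays, against 57.2% of all probe sets. Shares of all probe sets are over 45037, of which 9160 are not in the annotation and 932 name several genes. The probe sets of the members each name 1 gene, so the sets compared are not alike. The median of the highest probe set per gene was 9.82 for the members and 6.84 for all genes. The members have on average 2.67 probe sets per gene and all genes 1.92, which gives the members more chances to pass. With limma, at an adjusted p under 0.05 and a mean above 5, 9 of 9 members were called (69.1% of all genes) and 21 of 24 probe sets (54.8% of all probe sets). As background, 77 chemosensory receptor genes had a median probe set signal of 4.03 and a 95th percentile of 6.02. Of these receptor genes, 13 were above 5 on both arrays and 11 were called by limma, so signals little above 5 overlap with background. Against the stricter value of 6.02, 18 of the 24 probe sets and all 9 members were above on both arrays, against 42.2% of all probe sets and 57.5% of all genes. Each value below is the mean of both arrays ± SD (n = 2 arrays). The p-values set the distance of the mean from 5 against the spread between these arrays, moderated over all probe sets. They do not cover the spread between mice. Signals also depend on how well each probe binds, so different probe sets cannot be ranked by transcript abundance.

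**Figure D1:**
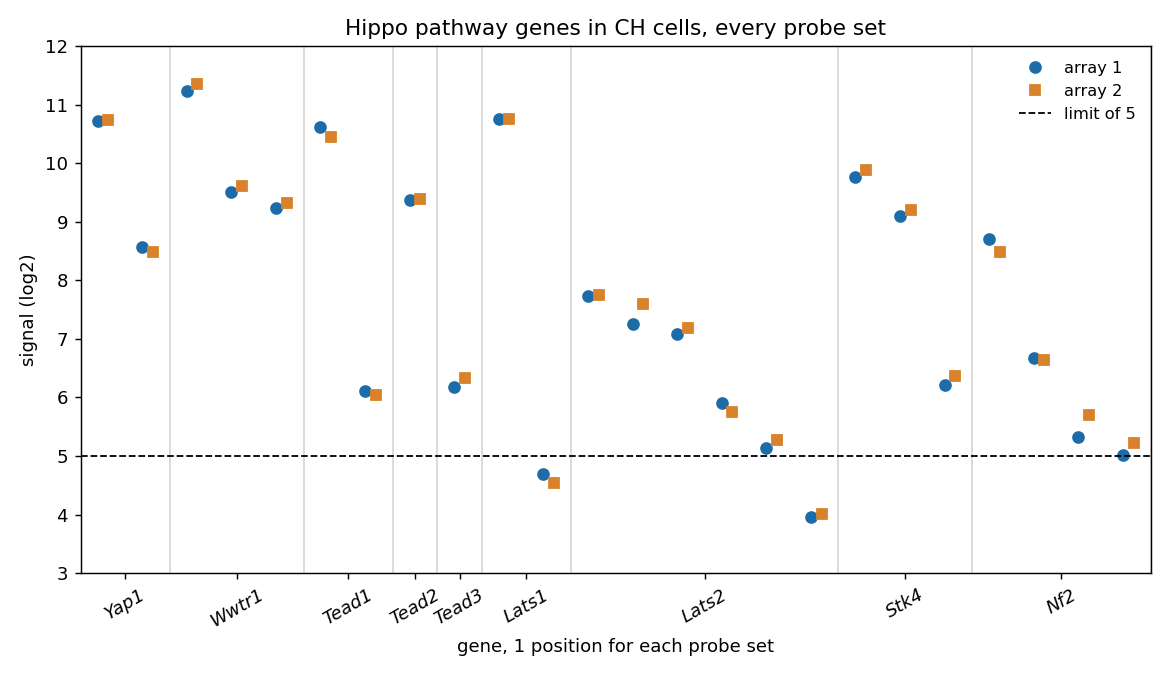
Log2 signal of all 24 probe sets of the 9 members in CH cells, 1 position for each probe set, ordered from the highest to the lowest within each gene, with a circle for array 1 and a square for array 2. The dashed line marks the limit of 5, and below it lie 1 probe set of Lats1 near 4.62 and 1 of Lats2 near 3.98.

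Yap1, the transcriptional coactivator at the end of the pathway, was well above the limit with both of its probe sets. Probe set 1448363_at was at 10.71 on array 1 and 10.73 on array 2, with a mean of 10.72 ± 0.01 (limma adjusted p = 9.6e-08). Probe set 1416487_a_at was at 8.58 and 8.48, with a mean of 8.53 ± 0.07 (limma adjusted p = 3.8e-07). The arrays lay far closer to each other than either was to 5.

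Wwtr1, which encodes the second coactivator Taz, was above 8 on both arrays with all 3 of its probe sets. Probe set 1417818_at was at 11.23 and 11.35, with a mean of 11.29 ± 0.08 (limma adjusted p = 9.3e-08). Probe sets 1417817_a_at and 1437155_a_at had means of 9.56 ± 0.08 and 9.28 ± 0.06. Array 2 was the higher array in all 3, by 0.09 to 0.11 on the log2 scale, less than the SD of 0.20 that the difference between arrays had over all probe sets. Among members with several probe sets, Yap1 and Wwtr1 were thus those for which none fell near the background, while the agreement among their own probe sets was no closer than is usual: the highest and lowest differed by 2.19 for Yap1 and 2.01 for Wwtr1, and the median of that span over 9010 genes with several probe sets was 2.06.

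The Tead factors bind DNA and recruit Yap and Taz to it. Tead1 was at 10.62 and 10.44 with probe set 1429556_at, a mean of 10.53 ± 0.13 (limma adjusted p = 1.3e-07). Its other probe set, 1423434_at, was at 6.11 and 6.04, a mean of 6.07 ± 0.05 (limma adjusted p = 4.3e-05), near the 95th percentile of the receptor genes. The level of Tead1 therefore depends on the probe set read, with a span of 4.46 between them. Tead2, a factor of early embryos and neural precursors, has 1 probe set, 1448519_at, at 9.37 and 9.39 (mean 9.38 ± 0.02, limma adjusted p = 1.6e-07). Tead3, known from placenta among other tissues, has 1 probe set, 1420593_a_at, at 6.18 and 6.33 (mean 6.26 ± 0.11, limma adjusted p = 3.2e-05). Both arrays were above 5 for Tead3, but its mean lay below that of Vmn1r44, the highest receptor gene at 6.92, and Tead3 was the sole member with no probe set above that level. Tead4, the remaining factor of the family and one needed for the trophectoderm, was not among the members and was at 6.14 ± 0.11 and 6.06 with its probe sets, also below Vmn1r44.

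Lats1 and Lats2 are the kinases that phosphorylate Yap and Taz. Lats1 was at 10.75 on both arrays with probe set 1435739_at, a mean of 10.75 ± 0.004 (limma adjusted p = 9.6e-08). Its other probe set, 1427679_at, was at 4.70 and 4.53, a mean of 4.62 ± 0.12, and lay below 5 (limma adjusted p = 0.0055). The span of 6.14 between the probe sets of Lats1 was the largest among the members, and which of them reads the transcript of these cells was not tested.

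Lats2, the kinase of the pair whose gene is itself a target of Yap, has 6 probe sets and gave no signal above 8 on both arrays with any of them. The highest, 1439441_x_at, was at 7.73 and 7.75 (mean 7.74 ± 0.02, limma adjusted p = 8.4e-07). Probe set 1437101_at was at 7.26 and 7.60 (mean 7.43 ± 0.24), and 1419678_at at 7.08 and 7.18 (mean 7.13 ± 0.07). These 3 exceeded the highest receptor gene, while the remaining 3 did not. Probe set 1425420_s_at was at 5.83 ± 0.11, 1426156_at at 5.21 ± 0.10 (limma adjusted p = 0.046) and 1419679_at at 3.98 ± 0.04, below 5 on both arrays. An _x_at probe set can also bind unrelated transcripts, and without it and the _s_at probe set Lats2 was still above 5 through 1437101_at.

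Stk4, the Mst1 kinase that activates the Lats kinases, was above 5 with all 3 of its probe sets. Probe set 1436015_s_at was at 9.77 and 9.88 (mean 9.82 ± 0.08, limma adjusted p = 1.5e-07), and 1434159_at at 9.10 and 9.19 (mean 9.15 ± 0.07). Probe set 1421107_at was lower, at 6.22 and 6.37 (mean 6.29 ± 0.10, limma adjusted p = 2.8e-05). All 3 were higher on array 2, by 0.09 to 0.15.

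Nf2 encodes merlin, a protein of the cell cortex that recruits the Lats kinases to the membrane and restrains growth. Its probe set 1421820_a_at was at 8.70 and 8.48 (mean 8.59 ± 0.16, limma adjusted p = 6.4e-07). Probe set 1450382_at was at 6.67 and 6.64 (mean 6.66 ± 0.02). The other probe sets were near the limit, 1427708_a_at at 5.33 and 5.70 (mean 5.51 ± 0.26, limma adjusted p = 0.0062) and 1451829_a_at at 5.02 and 5.22 (mean 5.12 ± 0.14). The latter was above 5 on both arrays but was not called by limma (adjusted p = 0.21). The level of Nf2 thus rests on 1 probe set far from background.

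Signals of the members differed little between the pools. The difference between array 1 and array 2 ranged from -0.37 for a probe set of Nf2 to 0.22 for another of the same gene, and 21 of the 24 differences were within 1 SD (0.20) of the differences over all probe sets, as were 72.6% of all. Array 2 was the higher array for 16 of the 24 probe sets, with a median difference of -0.07, and over all probe sets array 1 was higher in 49.7%. Probe sets of a gene share its transcript and are not independent, and with 1 array for each pool a difference between pools has no test.

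**Figure D2:**
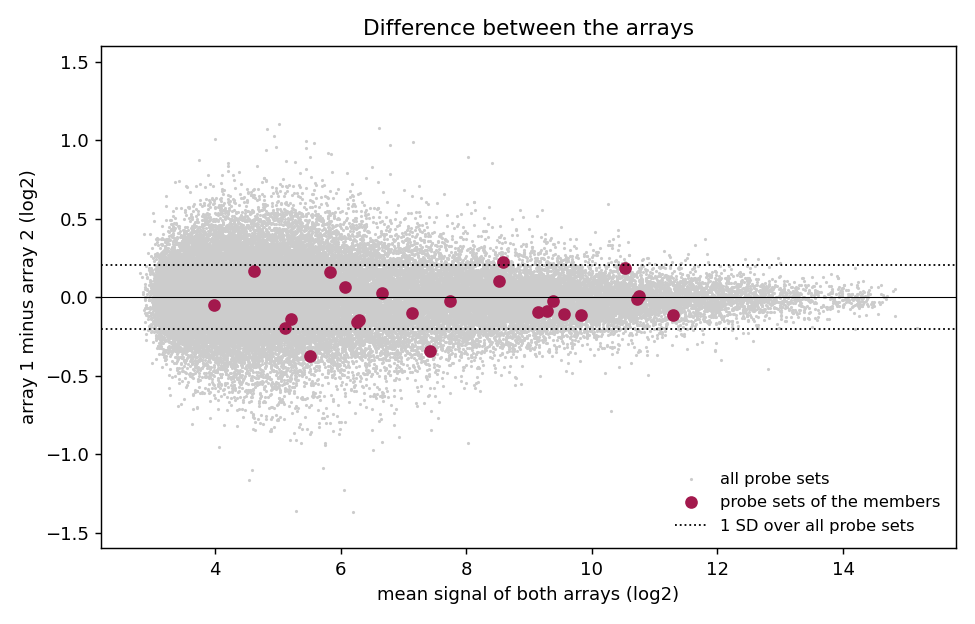
Array 1 minus array 2 (log2) against the mean of both arrays (log2) for all 45037 probe sets in grey and the 24 probe sets of the members in red, with dotted lines at 1 SD (0.20) of the difference over all probe sets. The member probe sets lie inside the cloud, and the lowest point is a probe set of Nf2 at -0.37.

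The genes that Yap and Taz are known to activate were above 5 on both arrays in 24 of 24 cases with a probe set (71.2% of all genes). Of these targets, 18 were above 8 (37.0% of all genes), and all 24 were called by limma (69.1% of all genes). Their median was 9.09, against 6.84 for all genes. The 24 targets have 60 probe sets, against 34945 for all 18193 genes, which gives them more chances to pass. Ankrd1, a nuclear ankyrin-repeat protein of muscle and stretched cells and a common readout of Yap activity, was at 12.64 on both arrays (mean 12.64 ± 0.001), and its other probe set was at 12.42. Ccn2 (Ctgf), a secreted matricellular protein, was at 11.49 and 11.39 (mean 11.44 ± 0.07). Ccn1 (Cyr61), its relative, was at 11.65 and 11.40 (mean 11.52 ± 0.18), with the other 3 probe sets also above 5 and the lowest at 7.37. All 3 of these readout genes were above 8 on both arrays, and those whose upstream bases are shown above, Ankrd1 and Ccn1, are among them. Gadd45a, a stress-induced growth inhibitor, was at 11.81 ± 0.11 and Axl, a receptor tyrosine kinase, at 11.54 ± 0.01, although the other probe set of Axl was at 3.46. The lowest targets were Foxf2, a forkhead factor of mesenchyme, at 5.63 ± 0.14, Nuak2, a kinase that acts back on the pathway, at 6.34 ± 0.19, Nt5e, the surface enzyme CD73, at 6.55 ± 0.28 and Fjx1, a secreted kinase, at 6.77 ± 0.02. All 4 lie within the range of the receptor genes, whose highest is at 6.92. Most targets also answer to other pathways, so these levels do not measure Yap activity. Lats2, Amotl2, Ajuba, Fjx1 and Ptpn14 stand in other lists as well, and without them 19 of 19 targets were above 5.

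**Figure D3:**
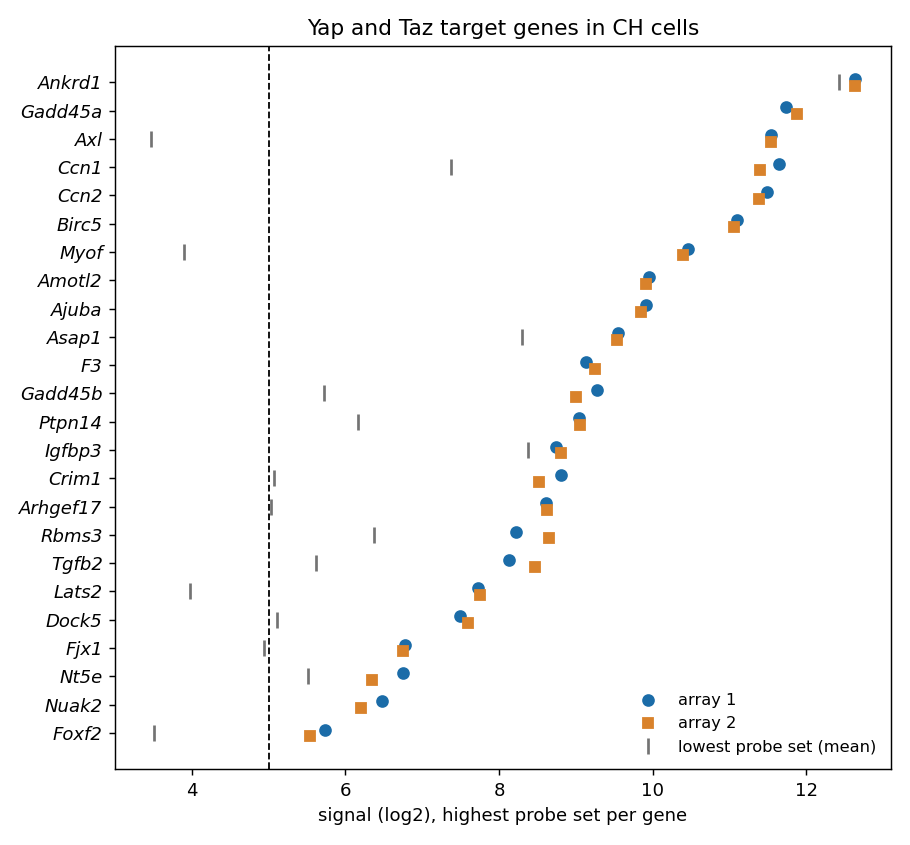
Log2 signal of 24 Yap and Taz target genes in CH cells with the highest probe set per gene, circles for array 1 and squares for array 2, and a grey tick at the lowest probe set of genes with several. The dashed line marks 5, every gene lies to its right with its highest probe set, from Foxf2 near 5.63 to Ankrd1 near 12.64, and the order is of signals and not of transcript abundance.

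Among the other kinases and adaptors of the core module, 12 of 13 genes were above 5 on both arrays and 9 were above 8, and limma called 12. The shares of all genes were 71.2%, 37.0% and 69.1%, which are also the shares to read beside the lists that follow. The 13 genes have 41 probe sets, against 34945 for all 18193 genes, which gives them more chances to pass. Sav1, the scaffold of the Mst kinases, was at 10.88 and 11.02 (mean 10.95 ± 0.10). Mob1a and Mob1b, coactivators of the Lats kinases, were at 10.33 ± 0.08 and 8.97 ± 0.19, although the other probe set of Mob1b was below 5. Stk38, a relative of the Lats kinases, was at 9.95 ± 0.03 and Taok1, a kinase that activates the Mst kinases, at 9.60 ± 0.08. Stk38 had 2 of 3 probe sets above 5, with the lowest at 4.31, and Taok1 had 5 of 7, with the lowest at 3.84. The gene not above 5 was Tnik, a kinase related to Map4k4 that also acts in Wnt signalling, at 4.85 ± 0.21. Map4k1, a kinase of blood cells, was next at 5.33 ± 0.25, below the 95th percentile of the receptors at 6.02. With the limit at that percentile, 11 of the 13 genes were above on both arrays, against 57.5% of all genes. Taok2 and Taok3, further activating kinases, were at 6.40 ± 0.13 and 7.68 ± 0.05. The median over the probe sets of Taok2 was 5.06, and the lowest probe set of Taok3 was at 4.25.

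Upstream regulators at junctions and at the cell surface were above 5 in 23 of 25 cases (71.2% of all genes), above 8 in 15 (37.0% of all genes) and called by limma in 23 (69.1% of all genes). Amot, which holds Yap at junctions and on actin, was at 12.02 and 12.10 (mean 12.06 ± 0.05) with its highest probe set, while its others were at 7.31 and 5.64. Fat1, a giant cadherin, was at 11.12 ± 0.08, the scaffold protein gene Rassf1 at 10.63 ± 0.09 and Frmd6, a FERM-domain protein, at 10.61 ± 0.06. In the cadherin family of Fat1, Fat3 was below 5 at 4.17 ± 0.31, Fat4 was at 5.51 ± 0.06 and Fat2 at 5.76 ± 0.22. Rassf6, a relative of Rassf1, was also below 5, at 4.70 ± 0.07. Fat2 and Fat4 lay below the 95th percentile of the receptors at 6.02 and cannot be told from background. With the limit at that percentile, 20 of the 25 genes were above on both arrays, against 57.5% of all genes. The 25 genes have 57 probe sets, more per gene than over all genes. Rassf1 had 2 of 4 probe sets above 5, with the lowest at 3.02. Each probe set has its own affinity, so these levels do not rank the related genes.

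Most of the listed components that remove phosphate from, degrade or retain pathway proteins were above 8 on both arrays with at least 1 probe set. Of 12 genes of the STRIPAK complex, a phosphatase that switches off the Mst kinases, 11 were above 5 and above 8 and were called by limma. Its phosphatase subunits Ppp2r1a and Ppp2ca were at 12.90 ± 0.02 and 12.46 ± 0.001 and the striatin Strn3 at 11.35 ± 0.01. The adaptor Pdcd10 was at 11.31 ± 0.03, although its lowest probe set was at 3.89. Strip2 was the gene of this complex not above 5, at 3.13 ± 0.20, and Strn, the namesake striatin, was at 8.54 ± 0.01. The lowest probe set of Strn was at 4.90. The 12 STRIPAK genes have 34 probe sets and the 11 genes for degradation and retention have 49, more per gene than over all genes. Of these 11 genes, all were above 5 and were called by limma, and 9 were above 8. They include the 14-3-3 proteins, which hold phosphorylated Yap in the cytoplasm and many other proteins besides, with Ywhaz at 13.24 ± 0.004, Ywhab at 13.07 ± 0.02 and Ywhaq at 12.72 ± 0.02. Sfn, the 14-3-3 protein of stratified epithelia, was at 6.14 ± 0.05, below the highest receptor gene. The ubiquitin ligase subunits Fbxw11 and Btrc were at 12.57 ± 0.02 and 7.18 ± 0.10. Each had 3 of 5 probe sets above 5, with the lowest at 3.56 for Fbxw11 and 3.88 for Btrc. The highest probe sets of Fbxw11, Ppp2r1a and Ywhaq are _x_at probe sets, and the median over the probe sets of Fbxw11 was 7.18.

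Among the pathway lists, that of other nuclear partners had the most genes not above the limit, with 3 of 6 above 5, 2 above 8 and 3 called by limma, with a median of 5.55. Vgll3 and Vgll4, cofactors that compete with Yap for Tead factors, were at 9.48 ± 0.09 and 8.09 ± 0.05. Vgll1 and Vgll2, of the same family, were at 4.19 ± 0.04 and 4.83 ± 0.07 and below 5 on both arrays. Trp73, the p53 relative that binds Yap, straddled the limit with 5.01 on array 1 and 4.92 on array 2. In all, 79 of 86 pathway genes other than the members were above 5 on both arrays, against 71.2% of all genes, and the 7 that were not are Tnik, Fat3, Rassf6, Strip2, Vgll1, Vgll2 and Trp73.

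**Figure D4:**
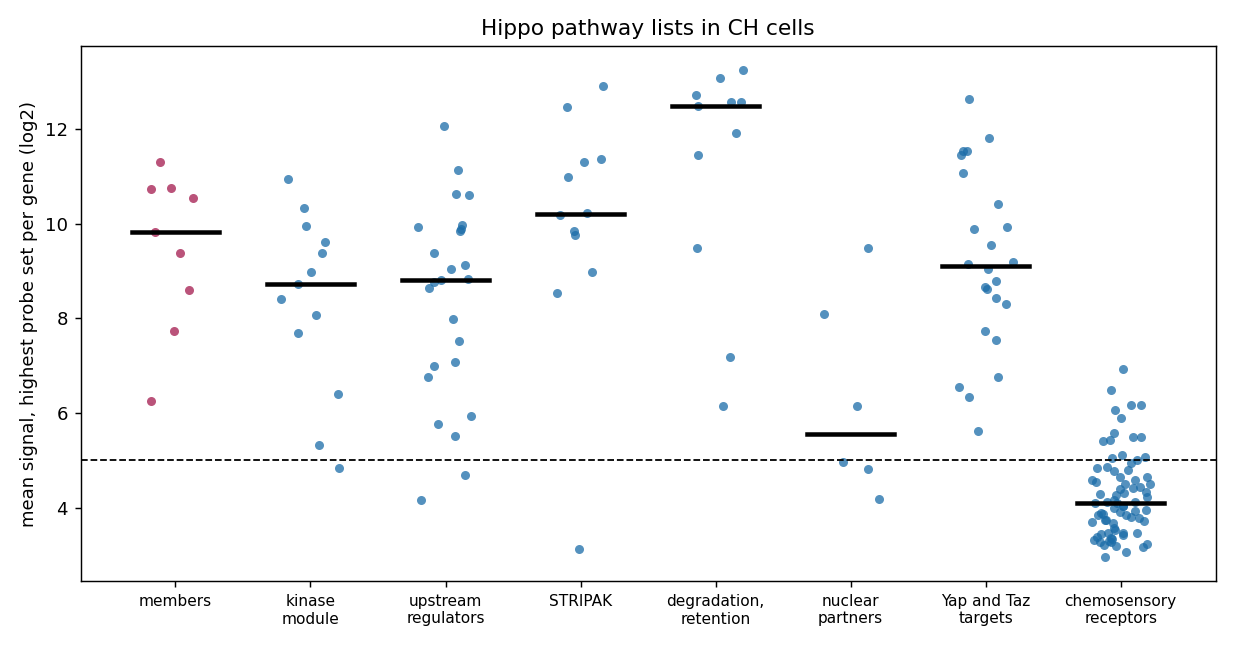
Mean log2 signal of both CH cell arrays for the members, 6 further lists of the pathway and 77 chemosensory receptor genes as background, with a circle per gene at its highest probe set, a bar at the median and a dashed line at 5. The medians are 9.82 for the members, 9.09 for the targets, 5.55 for other nuclear partners and 4.10 for the receptors.

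The cells were sorted as free of CD45 and lineage antigens, and marker genes were read beside the pathway. Ptprc, which encodes CD45, was at 4.95 and 5.24 (mean 5.10 ± 0.21) with its higher probe set and at 3.58 with the other. On both arrays, 2 of 4 leukocyte genes were above 5, namely Cd3e and Cd68 and not Ptprc. So were 1 of 4 erythroid genes, 5 of 5 platelet genes and 2 of 7 endothelial genes, against 71.2% of all genes. A further 3 of 7 listed leukocyte genes, 3 of 7 erythroid genes and 1 of 6 platelet genes had no probe set naming them alone. None of the genes of these 4 lists was above 8 on both arrays (37.0% of all genes), with list medians from 4.34 to 6.41. The highest of each were Cd3e at 6.61, Klf1 at 5.90, Itga2b at 7.18 and Kdr at 6.43. Itga2b and Ppbp, a platelet gene at 6.99, exceeded the highest receptor gene at 6.92. By contrast, 8 of 8 mesenchymal markers were above 5 (71.2% of all genes) and 6 above 8 (37.0% of all genes), with Col1a2 at 14.27 and Col3a1 at 12.83. Of 6 epithelial markers, 5 were above 5 and 4 above 8, with Krt8 at 11.87 and Krt18 at 10.66. In the same list Krt14 was below 5 at 4.70, and Krt5, at 5.63, was below the 95th percentile of the receptors at 6.02. Adherent mesenchymal and epithelial cells are known to use Yap and Taz, and the part of such cells in the signals given here was not tested. In pooled RNA, fewer cells of a kind and less RNA per cell cannot be told apart.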

How the data were processed

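RNA of CH cells was measured on 2 Affymetrix whole-genome arrays, 1 for each pool. The authors deposited log2 probe set signals. Their methods name RMA and quantile normalisation, run jointly with 5 public series, which sets all arrays to the same distribution. Whether the deposited signals stem from that run, and the tool versions and build, are not given in the sources used here. Of 45037 probe sets, after removal of 64 controls, 34945 name 1 gene. Entrez identifiers of 34741 matched GRCm38.p6. Ctgf, Cyr61, Pals1 and Tp73 were matched through synonyms to Ccn2, Ccn1, Mpp5 and Trp73.

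A gene was called above 5 where at least 1 probe set exceeded 5 on both arrays, and its highest probe set stood for its level. With limma 3.58.1 in R 4.3.3, each mean was set against 5 (intercept alone, empirical Bayes, two-sided, Benjamini-Hochberg adjustment over 45037 probe sets), and both calls were tested on simulated data. The members and lists were chosen with earlier results of these data known. Named were all members, up to 4 genes with the highest and 4 with the lowest level of each pathway list, Ccn2, Ccn1, Ankrd1, Tead4, Sav1, Mob1a and Mob1b, and, of cell type lists, Ptprc and up to 2 genes with the highest level. Vmn1r44, Krt5 and Krt14 were named after their values were seen. Planned protein comparisons were not made. Counts were repeated with limits of 6, 8 and the 95th percentile of receptor probe sets, with limma, with and without a trend, after quantile normalization, with the median over probe sets, without _s_at and _x_at probe sets and without each array. The number of arrays limits the precision.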

Additional observations from a re-analysis of the deposited data

How the results depend on the processing

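All alternatives were planned except the count of targets that stand in no other list, which was chosen after seeing the data. No paired analysis was possible because both arrays belong to the same group. The count of members above 5 was 9 under every alternative except a limit of 8, where it was 7. With a limit of 8, the count of member probe sets fell from 22 to 11, that of upstream regulators from 23 to 15 and that of chemosensory receptors from 13 to 0. With a limit of 6 and with one at the 95th percentile of receptor probe sets, the receptors gave 4. A higher limit admits fewer genes by construction. The counts of all other lists stayed within 1.5 times under these limits, and every count did so with limma, with and without a trend, with quantile normalization and without _s_at and _x_at probe sets. The counts of genes, which are those that a median over probe sets can give, did so with that median as well. The medians of the arrays were already 5.54 and 5.52, and quantile normalization shifted a probe set of the members by at most 0.0038. That alternative could therefore change the counts little. Without either array, the members' count was 9 in both cases and that of their probe sets 22, other nuclear partners gave 3 to 4 (Trp73 was above 5 on array 1 alone), and the receptors gave 15 in both cases. With the median over probe sets, the level of Lats1 moved from 10.75 to 7.68, of Tead1 from 10.53 to 8.30, of Nf2 from 8.59 to 6.09, of Wwtr1 from 11.29 to 9.56, of Lats2 from 7.74 to 6.48, of Yap1 from 10.72 to 9.62 and of Stk4 from 9.82 to 9.15. With 2 arrays of 1 group, a comparison with other cells was not possible, and levels near the background of the receptors cannot be told from it.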
